A study of Rattus norvegicus with 16 samples.

Results

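Neuronal immediate early genes were followed in RNA sequencing of the hypothalamus of 16 female Wistar rats at 21 days of age. The set held 5 genes, chosen by a fixed list of Ensembl identifiers, out of 32883 genes in the count files: Fos (ENSRNOG00000008015), Egr1 (ENSRNOG00000019422), Arc (ENSRNOG00000043465), Nr4a1 (ENSRNOG00000007607) and Junb (ENSRNOG00000042838). The gene names are those given with the list. The gene table at hand carries all 5 symbols and no Ensembl identifiers, so the pairing of identifiers with names was not checked against an annotation. All 5 genes passed the filter on low counts, which left 15366 genes tested.

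The tissue is labelled MBH-PoA. There were 4 groups of 4 rats. F1 control and F1 EDC rats descended from mothers given vehicle or a mixture of endocrine disrupting chemicals (EDC) in food, starting 2 weeks before gestation and lasting through lactation, and were themselves exposed in utero. F3 control and F3 EDC rats carried the same vehicle or EDC history only through their maternal ancestors. Every group is female, of the same strain and age. The components and doses of the mixture, the litters of the rats, and the hour and manner of tissue collection are not stated in these sources. Nothing in the labels shows that the rats of a group came from separate litters. The p-values therefore set group differences against the spread between these libraries. If littermates share a group, they may be too small for a statement about exposure. The sample titles of all 8 EDC rats read Control, whereas their source and treatment fields name the EDC mixture, and the latter set the groups.

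Immediate early genes are transcribed within minutes of a strong stimulus to a cell, without the need for new protein, and their RNA decays quickly. In neurons, calcium entry and kinase cascades act on the transcription factors CREB and SRF, which already sit at or are recruited to the promoters of these genes. Fos and Junb proteins pair through leucine zippers to form AP-1, Egr1 is a zinc finger transcription factor, Nr4a1 is an orphan nuclear receptor, and Arc is a synaptic protein that takes part in the removal of AMPA receptors from the membrane. In the hypothalamus, Fos above all is used to map neurons that respond to hormonal, metabolic or social stimuli.

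The choice of the genes did not use their promoters, which are shown here with motifs that CREB, SRF and other factors can read. Whether these motifs bear on the levels of the genes was not tested. RefSeq promoter sequences (build GRCr8) were at hand for 3 of the 5 members, Egr1, Nr4a1 and Junb. Each is given as the 250 bases before the annotated start site, 5′ to 3′ on the gene's strand, with matches to the motifs searched in capitals.
Egr1, chr18:26736828-26737077, + strand: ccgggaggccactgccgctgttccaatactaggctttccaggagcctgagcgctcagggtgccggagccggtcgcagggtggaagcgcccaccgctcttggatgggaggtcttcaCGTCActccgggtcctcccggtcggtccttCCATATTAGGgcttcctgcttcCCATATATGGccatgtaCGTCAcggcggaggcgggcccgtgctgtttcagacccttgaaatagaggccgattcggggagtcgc
Nr4a1, chr7:134259888-134260137, + strand: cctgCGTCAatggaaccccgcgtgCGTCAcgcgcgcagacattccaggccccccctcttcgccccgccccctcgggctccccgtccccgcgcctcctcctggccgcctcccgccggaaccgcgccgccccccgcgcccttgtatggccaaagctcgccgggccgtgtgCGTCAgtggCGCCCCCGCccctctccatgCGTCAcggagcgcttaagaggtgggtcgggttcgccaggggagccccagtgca
Junb, chr19:40080876-40081125, + strand: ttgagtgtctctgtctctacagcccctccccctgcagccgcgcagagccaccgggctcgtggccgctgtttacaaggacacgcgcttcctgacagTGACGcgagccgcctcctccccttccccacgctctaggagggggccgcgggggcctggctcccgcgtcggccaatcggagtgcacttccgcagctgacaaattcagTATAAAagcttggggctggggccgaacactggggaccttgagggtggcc

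The motifs were TGACGTCA, the full cyclic AMP response element; TGACG, its core, which also lies within the full element; the CArG box read by SRF; GCGNGGGCG, the site of Egr family proteins; and TATAAA. Both strands were searched. The Egr1 window held 2 CArG boxes, CCATATTAGG at bases 105 to 96 before the start and CCATATATGG at bases 83 to 74. A CArG box was found in 1.50% of 33469 rat promoter windows of the same length. The Egr1 window also held 2 TGACG cores, the Nr4a1 window 4 and the Junb window 1, against 18.2% of windows with at least 1. None of the 3 windows held TGACGTCA, which was found in 1.59% of windows. The Nr4a1 window held 1 GCGNGGGCG match (4.29% of windows), which overlapped no TGACG core, and the Junb window held TATAAA at bases 49 to 44 before the start (12.9% of windows). These matches describe the letters only, and binding was not measured.

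Gene counts per library ran from 5655354 to 35981898. The 5 genes were covered by 39 to 1874 reads per gene and library. The lowest count was that of Junb in F1 EDC replicate 2 and the highest that of Egr1 in F3 control replicate 1. Reads on the opposite strand made up 0.00% to 0.0939% for Fos, Egr1, Arc and Nr4a1, and 1.89% for Junb. For Junb this share was 7.05% in F1 EDC (26 reads beside 343 counts) and 0.476% in F1 control (4 reads beside 837), against 1.82% in F3 control and 1.45% for F3 EDC rats. Levels are given as CPM, the count relative to the library total, scaled between libraries with TMM factors. They are not divided by gene length, so they compare groups for a gene and not genes with each other. The multimapping share, reads that align to more than 1 place, ran from 15.7% to 51.6% over the libraries. In F1 it lay between 41.8% and 51.6% in EDC rats and between 19.9% and 43.2% in control rats. In F3 it lay between 15.7% and 44.4% in EDC rats and between 16.5% and 43.3% in control rats. The files do not pair identifiers with names, so marker genes of neurons, glia and neighbouring tissue were not analysed here, nor were other immediate early genes or their upstream regulators.

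**Figure D1:**
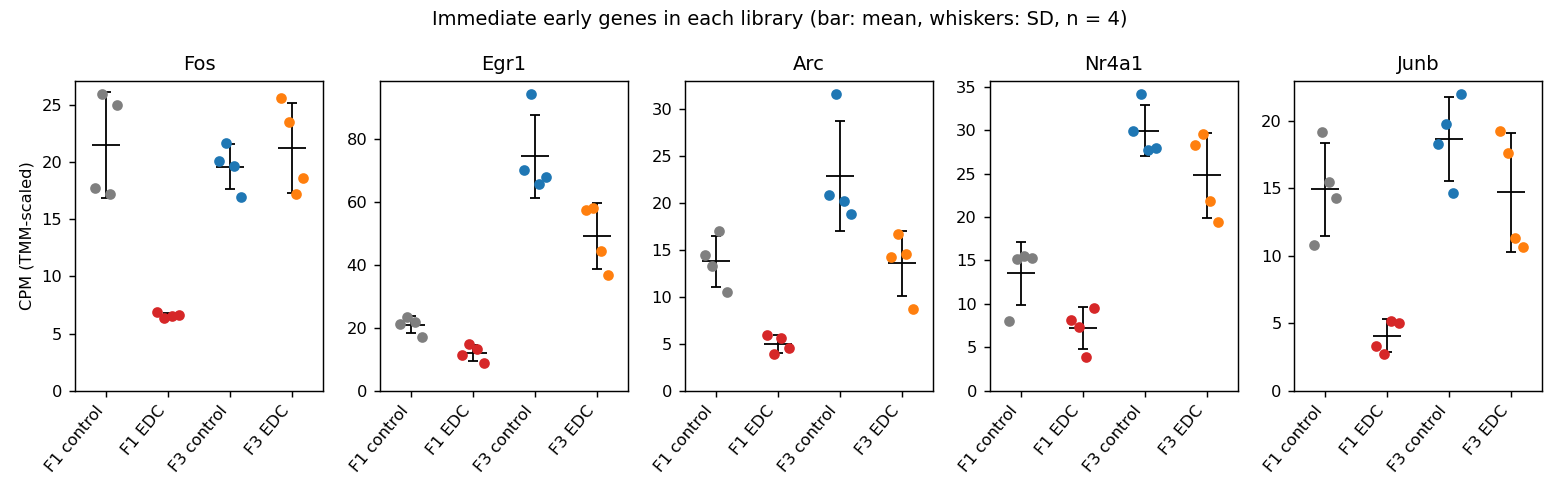
CPM of each gene (y axis, linear and starting at 0) in every library of the 4 groups (x axis); points are libraries, the short bar is the mean and the whiskers are the SD (n = 4). The F1 EDC libraries have the lowest group mean for each of the 5 genes, and Egr1 and Nr4a1 stand higher in both F3 groups than in both F1 groups.

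In F1, all 5 genes fell in EDC rats, and the falls ranged from 1.79-fold for Egr1 to 3.65-fold for Junb. All 5 passed an adjusted p of 0.05 as lower, where 52.4% of all tested genes were called in this comparison and 27.0% were called lower. In a comparison that called so many genes, a count of 5 of 5 is read beside that share. The median log2 fold change of the 5 genes was -1.49, against -0.004 over all tested genes. In bulk tissue, fewer cells that express a gene and less RNA per cell cannot be told apart.

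Among the AP-1 genes, Fos stood at 17.8, 26.0, 17.2 and 25.0 CPM in F1 control replicates 1 to 4, and at 6.89, 6.33, 6.55 and 6.63 CPM in F1 EDC replicates 1 to 4. The EDC libraries lay close together and all below the controls. Fos fell 3.24-fold, a log2 fold change of -1.70 (SE 0.16; edgeR quasi-likelihood adjusted p = 5.52e-09). The coefficient of variation of Fos in F1 EDC was 3.46%, below the 9.88% that counting error alone would give on average, and in F1 control it was 21.6%. The control values formed a higher and a lower pair, with replicates 2 and 4 at 25.0 CPM or more.

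Junb, the AP-1 partner, measured 10.8, 19.1, 15.5 and 14.3 CPM in the F1 controls and 3.34, 2.74, 5.17 and 5.02 CPM in F1 EDC. Its groups did not overlap. Junb fell 3.65-fold, the largest change of the 5 (log2 fold change -1.87, SE 0.24; edgeR adjusted p = 1.29e-06). With unstranded counts, which include reads of the opposite strand, it was -1.76 (edgeR adjusted p = 1.82e-06). The share of tested genes with a lower log2 fold change in F1 was 3.57% for Junb and 4.22% for Fos. It was 5.53% for Arc, 12.9% for Nr4a1 and 13.2% for Egr1.

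Arc, the synaptic effector, measured 14.4, 13.3, 17.1 and 10.5 CPM in the F1 controls and 5.98, 3.94, 5.63 and 4.52 CPM in F1 EDC. The highest EDC library lay below the lowest control. Arc fell 2.80-fold (log2 fold change -1.49, SE 0.21; edgeR adjusted p = 3.67e-06).

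Egr1 and Nr4a1 changed less. Egr1, the zinc finger factor, measured 21.2, 23.5, 22.0 and 17.1 CPM in the F1 controls and 11.3, 14.8, 13.1 and 8.86 CPM in F1 EDC. The groups did not overlap, and Egr1 fell 1.79-fold (log2 fold change -0.84, SE 0.18; edgeR adjusted p = 0.000645). Nr4a1, the nuclear receptor, measured 8.08, 15.2, 15.6 and 15.3 CPM in the F1 controls and 8.14, 7.39, 3.88 and 9.56 CPM in F1 EDC. Control replicate 1 lay among the EDC libraries, so the groups overlapped, and the other 3 controls lay above every EDC library. Nr4a1 fell 1.81-fold (log2 fold change -0.86, SE 0.23; edgeR adjusted p = 0.00486). Without control replicate 1 all 5 genes were still called lower.

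The values of F1 EDC and F1 control did not overlap for 4 of the 5 genes, all lower in EDC, where 22.0% of tested genes were lower without overlap. The count of 5 called genes was 5 under each of the 10 other settings that gave a value and in each of the 16 fits without a single library. One of those settings took the multimapping share as a covariate, the measure that was higher in most F1 EDC libraries than in F1 controls. Its ranges, 41.8% to 51.6% in F1 EDC and 19.9% to 43.2% in F1 control, overlapped little, so that fit cannot fully separate the share from exposure in F1. Leaving out libraries with over 40% multimapping reads gave no F1 value, because F1 EDC kept 0 libraries.

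**Figure D2:**
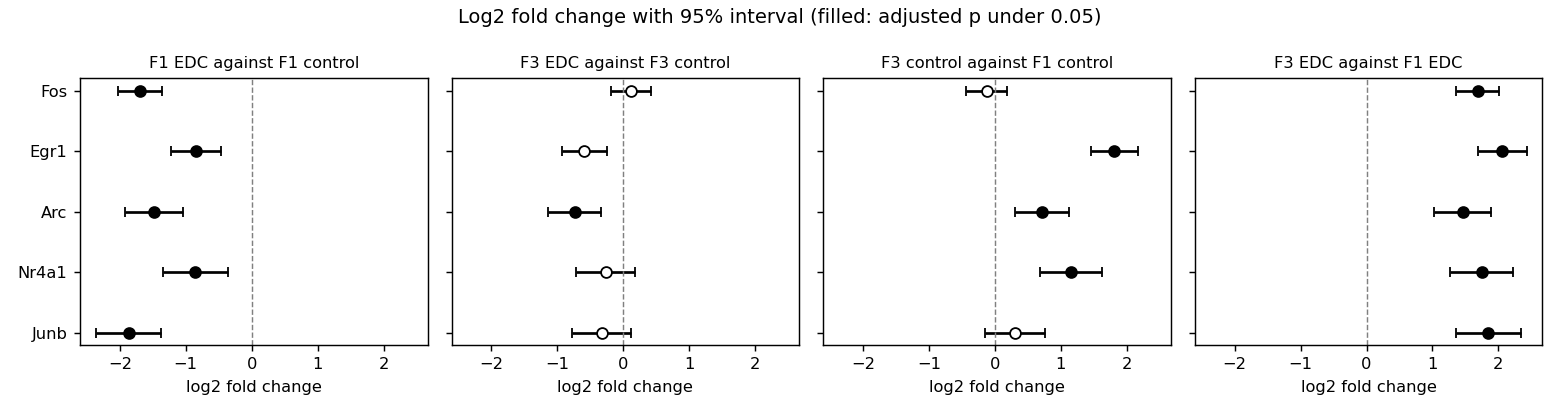
Log2 fold change of each gene (x axis, log2 scale) in 4 comparisons, with a 95% interval derived from the edgeR F statistic. Filled points passed an adjusted p of 0.05. All 5 points are filled and below 0 in F1 EDC against F1 control, and only Arc is filled in F3 EDC against F3 control.

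In F3, Arc fell in rats of the EDC lineage, and Egr1 was lower in every EDC library without passing the threshold. By edgeR 1 of the 5 genes was called, where 2.94% of all tested genes were called and 1.87% were called lower, and 2 of the 5 had an unadjusted p under 0.05, as did 16.6% of all tested genes. DESeq2 and limma voom called 2, Arc and Egr1, and these tools also called more of all genes, 758 and 1522 against 452 by edgeR. The median log2 fold change of the 5 genes was -0.33, against -0.03 over all tested genes.

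Arc measured 20.9, 31.6, 20.2 and 18.8 CPM in the F3 controls, against 14.3, 16.7, 14.6 and 8.67 CPM in the EDC rats. The groups did not overlap. The highest value was control replicate 2 and the lowest EDC replicate 4. Arc fell 1.67-fold (log2 fold change -0.74, SE 0.19; edgeR adjusted p = 0.0399). This call stood at the edge of the threshold. It was lost in 11 of the 16 fits without a single library, namely F1 control replicate 2, F1 EDC replicates 1 to 4, replicates 1 to 3 of F3 control, and replicates 1, 3 and 4 of F3 EDC. The log2 fold change in the 16 fits stayed between -0.85 and -0.54, and the adjusted p over all settings ran from 0.00578 to 0.203. Without F3 control replicate 2 the log2 fold change was -0.54 (edgeR adjusted p = 0.203), and without F3 EDC replicate 4 it was -0.59 (edgeR adjusted p = 0.108). F3 EDC replicate 4 also had the highest multimapping share of the F3 libraries, 44.4%. With that share as a covariate, the log2 fold change was -0.78 (edgeR adjusted p = 0.0522). With each generation fitted alone it was -0.71 (edgeR adjusted p = 0.0738).

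Egr1 measured 69.9, 94.1, 65.5 and 68.0 CPM in the F3 controls, against 57.3, 58.0, 44.3 and 36.8 CPM in the EDC rats. Every EDC library lay below every control. The ratio was 0.664, a log2 fold change of -0.59 (SE 0.16; 95% interval -0.93 to -0.25), with an edgeR adjusted p of 0.0540. DESeq2 gave Egr1 an adjusted p of 0.00981 and limma voom 0.0171. Without F1 EDC replicate 4, a library outside the contrast that enters the shared spread, edgeR gave 0.0390. Other settings moved Egr1 away from the threshold. Without F3 control replicate 2, its highest library, the log2 fold change was -0.46 (edgeR adjusted p = 0.195). Without F3 EDC replicate 4 it was -0.48 (edgeR adjusted p = 0.125). Over all settings the adjusted p for Egr1 ran from 0.00840 to 0.209. Egr1 and Arc were thus the members whose groups did not overlap in F3, both lower, where 7.32% of tested genes were lower without overlap.

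Nr4a1, Junb and Fos did not pass in F3 under any setting. For Nr4a1 the controls read 29.9, 34.2, 27.7 and 28.0 CPM and the EDC rats 28.3, 29.6, 21.9 and 19.4 CPM, with a log2 fold change of -0.27 (95% interval -0.72 to 0.18; edgeR adjusted p = 0.582). For Junb the controls read 18.2, 19.8, 14.6 and 22.0 CPM and the EDC rats 19.3, 17.6, 11.3 and 10.6 CPM, with a log2 fold change of -0.33 (95% interval -0.78 to 0.12; edgeR adjusted p = 0.486). For each of these 2 genes, EDC replicates 3 and 4 lay below all controls and EDC replicates 1 and 2 lay among them. For Fos the controls read 20.1, 21.7, 19.7 and 17.0 CPM and the EDC rats 25.6, 23.5, 17.2 and 18.6 CPM. Its log2 fold change was 0.12 (95% interval -0.19 to 0.42; edgeR adjusted p = 0.750), and EDC replicates 1 and 2 lay above every control.

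The interaction contrast asked whether the EDC difference was the same in both generations. Of the 5 genes, 3 passed, all with a log2 fold change that was higher in F3 than in F1, where 43.6% of all tested genes were called and 21.8% were called in that direction. The difference was 1.81 for Fos (SE 0.22; edgeR adjusted p = 4.36e-07), whose level fell in F1 and showed no called change in F3. For Junb it was 1.54 (SE 0.32; edgeR adjusted p = 0.000551). For Arc it was 0.75 (SE 0.29; edgeR adjusted p = 0.0382), and this call was lost in 10 of 16 fits without a single library: F1 control replicates 1 and 3, F1 EDC replicates 2 and 4, F3 control replicates 1, 3 and 4, and F3 EDC replicates 1, 2 and 3. It was also lost with the multimapping share as a covariate, at a difference of 0.66 (edgeR adjusted p = 0.129), which left 2 called genes, Fos and Junb. The adjusted p for Arc ran from 0.00795 to 0.129 over all settings. Nr4a1 gave 0.59 (95% interval -0.08 to 1.26; edgeR adjusted p = 0.144), and 0.78 without F1 control replicate 1 (edgeR adjusted p = 0.0270). Egr1 gave 0.25 (95% interval -0.25 to 0.76; edgeR adjusted p = 0.430), so a difference between the generations in the size of its fall was not detected.

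**Figure D3:**
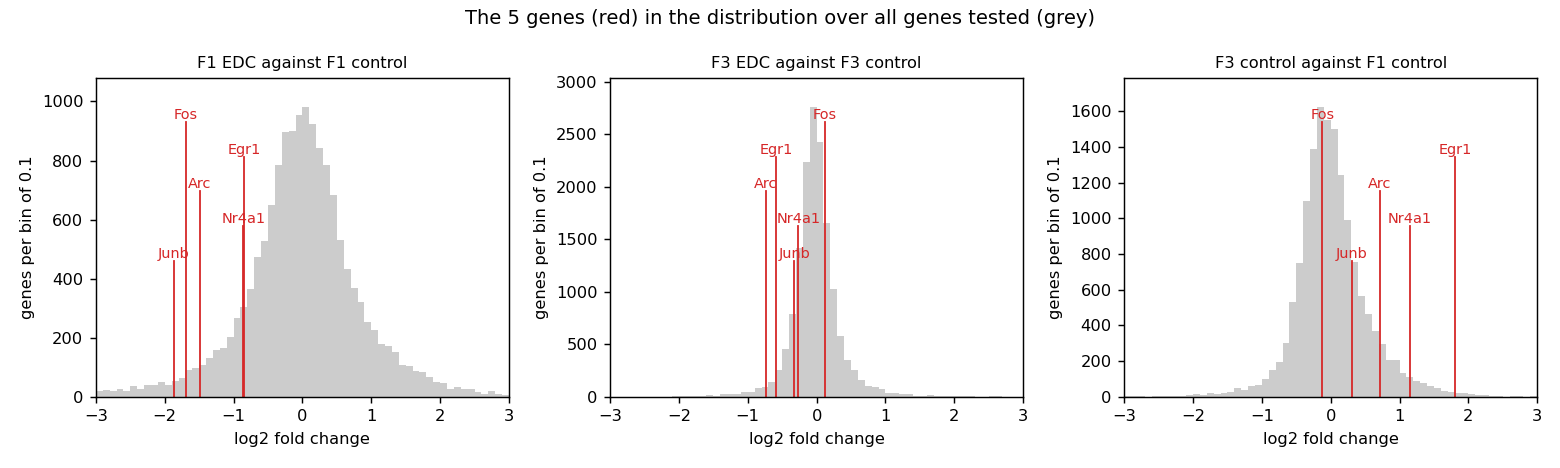
Number of tested genes (y axis) per bin of 0.1 in log2 fold change (x axis, shown from -3 to 3) in 3 comparisons, with the 5 genes as red lines. The 5 genes lie in the lower part of the broad F1 distribution, with Junb and Fos furthest out. The F3 distribution is narrower, and Egr1 and Arc lie in its lower tail. For F3 control against F1 control, Egr1 and Nr4a1 lie in the upper tail.

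The vehicle groups of the generations differed in 3 of the 5 genes. Egr1, Nr4a1 and Arc were higher in F3 control than in F1 control, where 27.5% of all tested genes were called and 14.6% were called higher. Generation and the lane number carried by the file names go together, so they cannot be told apart here. Egr1 was 3.50-fold higher, at 74.4 ± 13.3 CPM in F3 control against 21.0 ± 2.74 CPM in F1 control (SD, n = 4; log2 fold change 1.81, SE 0.17; edgeR adjusted p = 2.09e-07). Of the tested genes, 99.2% had a lower log2 fold change than Egr1 in this contrast. Nr4a1 rose from 13.5 ± 3.64 to 30.0 ± 2.96 CPM (SD, n = 4), 2.22-fold (log2 fold change 1.15, SE 0.22; edgeR adjusted p = 0.000738).

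Arc rose from 13.8 ± 2.71 to 22.9 ± 5.90 CPM (SD, n = 4), 1.64-fold (log2 fold change 0.72, SE 0.20; edgeR adjusted p = 0.00859). Without F3 control replicate 2, its highest library, Arc had a log2 fold change of 0.52 and an edgeR adjusted p of 0.0551. The libraries of the 2 groups did not overlap for Egr1, Nr4a1 and Arc, all higher in F3, where 13.6% of tested genes were higher without overlap. The AP-1 genes did not pass. Fos averaged 19.6 ± 1.96 CPM in F3 against 21.5 ± 4.64 CPM in F1 (SD, n = 4), a log2 fold change of -0.12 (95% interval -0.43 to 0.19; edgeR adjusted p = 0.590). Junb averaged 18.7 ± 3.10 CPM in F3 against 14.9 ± 3.44 CPM in F1 (SD, n = 4), a log2 fold change of 0.31 (95% interval -0.15 to 0.77; edgeR adjusted p = 0.326).

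In the EDC lineage all 5 genes were higher in F3 than in F1, with log2 fold changes from 1.46 for Arc to 2.06 for Egr1. In this contrast 53.5% of all tested genes were called and 27.0% were called higher. The largest fold was that of Egr1, 4.17 (SE of the log2 fold change 0.18; edgeR adjusted p = 1.25e-08), and the smallest that of Arc, 2.76 (SE of the log2 fold change 0.21; edgeR adjusted p = 3.54e-06). The comparisons named so far share groups, so this contrast carries the same F1 EDC libraries as the F1 comparison. Generation and the lane number of the file names cannot be told apart here either. The multimapping share also differed, at 41.8% to 51.6% in F1 EDC and 15.7% to 44.4% in F3 EDC.

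The order of the 4 groups differed between genes, apart from F1 EDC, which had the lowest mean for every gene. For Fos the other groups, F3 control at 19.6 CPM, F3 EDC at 21.2 ± 3.96 CPM and F1 control at 21.5 CPM, overlapped one another. For Egr1 the order was F1 EDC at 12.04 ± 2.56 CPM, F1 control at 21.0 CPM, F3 EDC at 49.1 ± 10.3 CPM and F3 control at 74.4 CPM (SD, n = 4), and no neighbours in it overlapped. Nr4a1 had the same order, with F1 EDC at 7.24 ± 2.42 CPM, F1 control at 13.5 CPM, F3 EDC at 24.8 ± 4.94 CPM and F3 control at 30.0 CPM (SD, n = 4). The F1 groups overlapped for Nr4a1, as did the F3 groups, and no F1 library reached an F3 library. Arc in F3 EDC, at 13.6 ± 3.44 CPM, was next to F1 control, at 13.8 CPM, and these groups overlapped. The same was so for Junb, at 14.7 ± 4.38 CPM in F3 EDC and 14.9 CPM in F1 control (SD, n = 4).

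**Figure D4:**
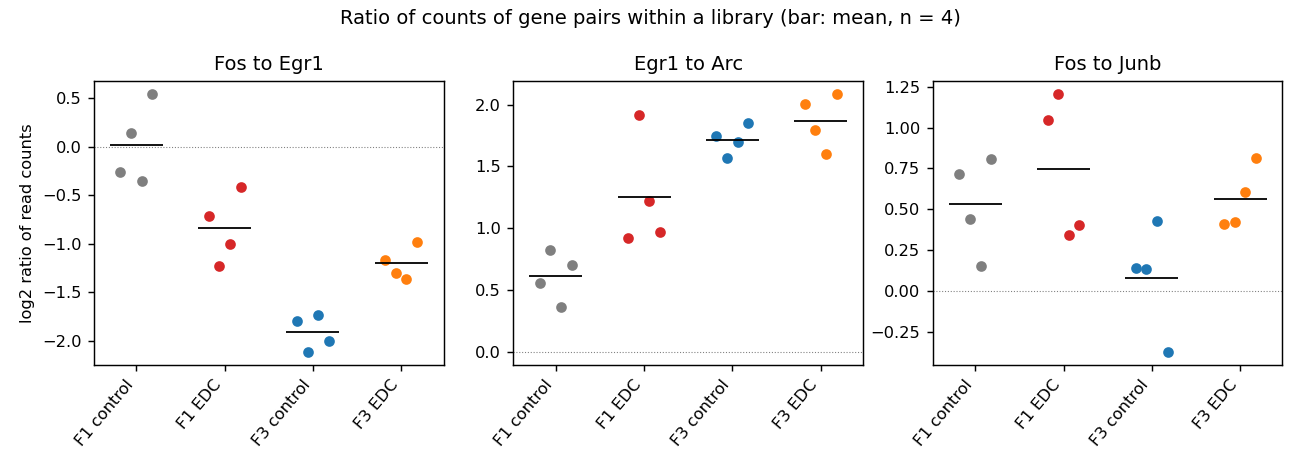
Log2 ratio of the read counts of 2 genes within a library (y axis) for 3 gene pairs in the 4 groups (x axis); points are libraries and bars are means of the log2 ratios (n = 4). The Fos to Egr1 ratio has no overlap between EDC and control in either generation, with EDC lower in F1 and higher in F3, while the Fos to Junb ratio overlaps between all groups compared.

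Ratios of counts between members within a library do not depend on the scaling between libraries. Fos to Egr1 was the only pair of members without overlap between EDC and control in both generations. The Fos to Egr1 count ratio was 1.05 ± 0.309 in F1 control rats against 0.570 ± 0.140 in F1 EDC rats (SD, n = 4). In F3 it was 0.267 ± 0.0323 in control rats against 0.437 ± 0.0522 in EDC rats (SD, n = 4). Every F1 EDC library was below every F1 control, and every F3 EDC library was above every F3 control. The ratios were examined after their values were seen. Of the 10 pairs of members, 8 overlapped between EDC and control in F1 and 5 overlapped in F3. No test was made on the ratios, and pairs of genes outside the 5 members were not computed for comparison.

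Egr1 to Arc, another pair, had a count ratio of 1.54 ± 0.209 in F1 control and 2.49 ± 0.874 in F1 EDC, without overlap. In F3 the control ratio was 3.29 ± 0.264 and the EDC ratio 3.69 ± 0.551 (SD, n = 4), with overlap. Fos to Junb, the AP-1 pair, was 1.47 ± 0.288 in control and 1.74 ± 0.525 in EDC rats of F1, and 1.08 ± 0.235 in control and 1.49 ± 0.201 in EDC rats of F3 (SD, n = 4).

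The 5 genes varied more between libraries of a group than most genes of their level. The biological coefficient of variation estimated by edgeR was 15.4% for Fos, 16.3% for Egr1, 19.6% for Arc, 21.5% for Nr4a1 and 21.8% for Junb, against a median of 14.5% over all tested genes. Among the 500 genes nearest in mean level, 70.6% varied less than Fos, 95.4% less than Egr1, 89.8% less than Arc, 95.2% less than Nr4a1 and 95.2% less than Junb. These are descriptions with no test.

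**Figure D5:**
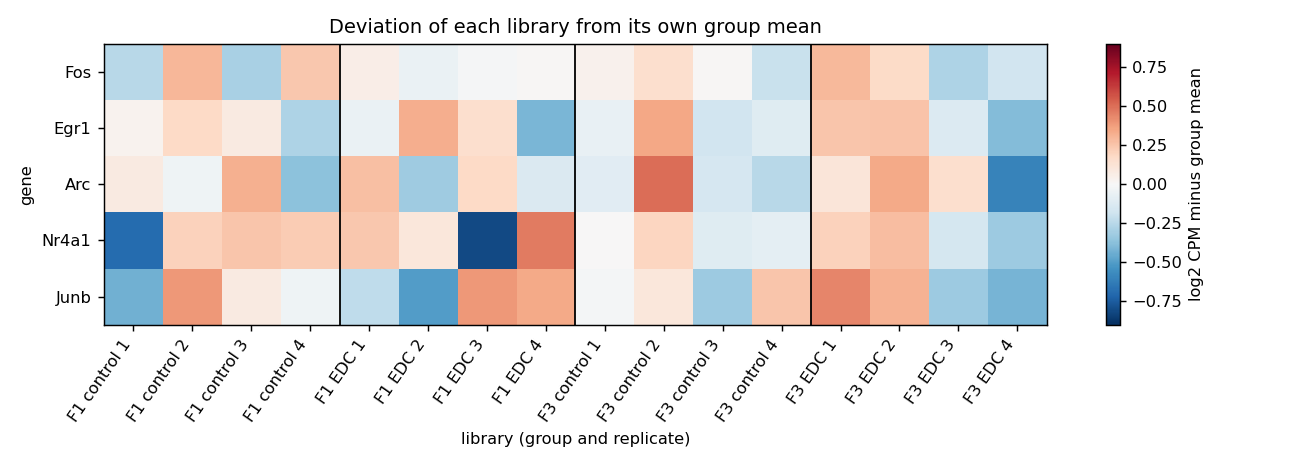
Deviation of log2 CPM from the mean of the library's own group (colour, red above and blue below) for the 5 genes (rows) in the 16 libraries (columns, black lines between groups). In F3 the colours of a column mostly match, as in replicate 2 of F3 control and replicates 1, 2 and 4 of F3 EDC; in F1 they are mixed.

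Within a group, the 5 genes varied together between libraries in F3, and no such pattern was seen in F1. Deviations of log2 CPM from the group mean were correlated for the 10 pairs of genes. Over the 8 F3 libraries all 10 Pearson coefficients were positive, from 0.490 for Arc and Junb to 0.966 for Egr1 and Nr4a1, with a median of 0.805 (median Spearman rho 0.750). Over the 8 F1 libraries 5 of 10 were positive, from -0.483 for Fos and Arc to 0.387 for Fos and Junb, with a median of -0.0439 (median Spearman rho 0.0595). Over all 16 libraries the median was 0.301, and over the 12 outside F1 EDC it was 0.539. The file names of a generation carry the same lane number, although the labels state 4 samples per lane, and the true lane of each library is unclear. Summed over a group, the counts of each of these genes were lower in both F1 groups than in both F3 groups, so counting error weighs more in F1. Such counts depend on the level of a gene as well as on depth, and the deepest library was F1 EDC replicate 4 (35981898 gene counts). The counting coefficient of variation was 6.63% to 13.2% over the genes and groups of F1 and 2.78% to 7.12% in F3. The coefficient of variation of CPM was 3.46% to 33.4% in F1 and 9.89% to 29.8% in F3. Whether counting error bears on the pattern was not tested. The split by generation was made after seeing the data, and the difference between the generations was not tested. Pairs of other genes of similar level were not correlated for comparison, so the pattern is not shown to be particular to these 5 genes.

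In some F3 libraries all 5 genes lay on the same side of the group mean. All 5 genes were above their group mean in F3 control replicate 2, F3 EDC replicate 1 and F3 EDC replicate 2, by 0.26, 0.26 and 0.27 on average on the log2 scale. All 5 were below it in F3 EDC replicate 4, at a mean of -0.38. This library had the highest multimapping share (44.4%), the highest unmapped share (5.96%) and the lowest gene counts (10285902) of the F3 libraries. In that library Fos deviated by -0.17 and Arc by -0.60. Without F3 EDC replicate 4 the median coefficient within F3 was 0.690, and leaving out any other F3 library gave 0.759 to 0.886. In no F1 library were all 5 genes on the same side of the group mean. Over the 16 libraries, the mean deviation of the 5 genes had a Pearson r of -0.367 (Spearman rho -0.224) with the multimapping share and of 0.407 (Spearman rho 0.288) with log2 gene counts, each as a deviation from the group mean. With the share of unmapped reads it had a Pearson r of -0.319 (Spearman rho -0.371). By gene, that r was -0.588 for Arc, -0.557 for Egr1, -0.127 for Junb, -0.0106 for Nr4a1 and 0.222 for Fos. Whether these library measures bear on the levels of the genes was not tested.

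By the rule for genes of a like pattern, the 2 identifiers whose deviations followed the mean of the 5 genes most closely over 16 libraries, among 14169 candidates, were ENSRNOG00000012647 (Pearson r 0.867, Spearman rho 0.818) and ENSRNOG00000017489 (Pearson r 0.854, Spearman rho 0.788). The first was barely expressed, between 0.586 and 1.47 CPM on average in the 4 groups. In F1 the second averaged 14.6 ± 1.98 CPM in control and 13.98 ± 0.820 CPM in EDC rats, and in F3 47.7 ± 7.28 CPM in control and 34.5 ± 4.06 CPM in EDC rats (SD, n = 4). ENSRNOG00000017489 was not called in F1 (log2 fold change -0.07; edgeR adjusted p = 0.687) and fell in F3 (log2 fold change -0.46; edgeR adjusted p = 0.0340), so its group means resembled those of Egr1 in F3 and not in F1. Both were picked as the highest of many coefficients, which are given as a description.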

How the data were processed

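RNA from 16 hypothalamus samples was sequenced with single reads of 100 cycles on an Illumina HiSeq, per the labels' protocols. Trimmomatic 0.33, TopHat2 2.1 and the genome build rn6 appear in the submitters' processing notes. The authors deposited raw read counts per Ensembl gene in the layout of STAR (version not stated in these sources). The fourth column (reverse strand) was used, which held at least 52.5 times the counts of the other strand. Summary lines stayed out of library sizes.

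Counts were filtered with filterByExpr (count minimum 10), scaled with TMM factors and tested over 15366 genes with edgeR 4.0.16 in R 4.3.3 (robust quasi-likelihood F test, 4 group means, all 16 libraries, two-sided, Benjamini-Hochberg threshold 0.05 over all tested genes). Each standard error is the absolute log2 fold change divided by the root of F. Each 95% interval is the log2 fold change plus or minus a t quantile times that standard error, and is not an output of edgeR. Correlations used log2 CPM with a prior count of 2. The procedure was also run on counts simulated from the fitted model, with far fewer changed genes than were called in F1. That run does not show how the procedure performs under so broad a change. Other settings tried were DESeq2 1.42.0, voom with quality weights in limma 3.58.1, scaling by RLE or upper quartile, other filters, unstranded counts, each generation alone, a replicate block, the multimapping share as a covariate, and leaving out libraries. Named genes were the 5 members and the 2 identifiers most like them. The members and lists were chosen with earlier results of these data known. No pair of replicates held identical counts. Lists of other immediate early genes, upstream regulators and cell type markers could not be matched to identifiers and were left out. The intervals of counting error take reads as independent molecules.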

Additional observations from a re-analysis of the deposited data

Results flagged for a closer look

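In 3 of the 20 combinations of gene and group, 1 library lay far from the other 3 by Dixon's criterion, where chance gives about 1 in 20. Egr1 in F3 control replicate 2 stood at 94.1 CPM, above 65.5 to 69.9 CPM in the others. Arc in the same library stood at 31.6 CPM, above 18.8 to 20.9 CPM. Nr4a1 in F1 control replicate 1 stood at 8.08 CPM, below 15.2 to 15.6 CPM.

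The EDC difference was not the same in both generations for 3 of the 5 genes by the interaction contrast in edgeR, which called 43.6% of all tested genes. The F3 log2 fold change minus the F1 value was 1.81 for Fos (adjusted p = 4.36e-07), 0.75 for Arc (adjusted p = 0.0382) and 1.54 for Junb (adjusted p = 0.000551). The Arc call was lost in 10 of 16 fits without a single library and with the multimapping share as a covariate (adjusted p = 0.129).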

How the results depend on the processing

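Of the 25 log2 fold changes (5 genes in 5 comparisons), 19 kept their direction and side of the threshold under every other setting, and 24 kept their direction. The exception in direction was Fos in F3 control against F1 control, at 0.01 without F1 control replicate 2 and -0.21 to 0.01 over the fits without single libraries. The count of called members in F3 EDC against F3 control, 1 by edgeR, was 2 with DESeq2 and with limma voom. It was 0 with the multimapping share as a covariate, with each generation fitted alone, and without the libraries with over 40% multimapping reads. In each of these 3 edgeR fits 2 members had an unadjusted p under 0.05, as did 15.5%, 20.5% and 14.3% of all tested genes. That last fit kept 3 libraries in each F3 group and called 0 of 15690 genes, with 2240 at an unadjusted p under 0.05. It allowed no comparison with F1 EDC, which kept 0 libraries. Leaving out single libraries gave 0 to 1 called members in F3, 5 to 5 in F1, 2 to 3 for the difference between generations, 2 to 3 for the controls and 5 to 5 for F3 EDC against F1 EDC. Over all genes the F3 count of 452 was 758 with DESeq2, 1522 with limma voom and 34 to 553 without single libraries. Over all tested genes, 0 of 4 same-numbered pairs of libraries correlated above 0.1 in any comparison. That check does not cover single genes. Egr1 lay above its group mean in replicate 2 of every group and below it in replicate 4 of every group. For replicates 1 and 3 its side of the mean was mixed. With the replicate block, 2 members were called in F3 (Egr1 adjusted p = 0.00840) and 387 genes in all. The median correlation between members was 0.301 over 16 libraries, 0.539 in the 12 outside F1 EDC and 0.184 to 0.379 without single libraries. The cause of these changes was not tested. The lowest counts, 39 to 200 reads for Junb in F1 EDC, limit its precision.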
